A study of Mus musculus with 36 samples.

Results

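Deletion of the first bromodomain of Brdt was compared with its controls in testes of juvenile mice at 20 days post partum (dpp), with all arrays of both sample groups taken as members: 12 of the 36 arrays of the series, from 7 of its 24 animals. The deletion group held BD1-/- animals 193, 197 and 222, with 2 arrays each. The control group held BD1+/- animals 219 and 191, with 1 array each, and BD1+/+ animals 195 and 196, with 2 arrays each. All 7 are labelled C57BL/6, and no further allele or treatment is named for them. Animals 193 and 191 share litter 4, animals 197, 195 and 196 share litter 5, and animals 222 and 219 share litter 6. The rest of the series holds a Brdt knockout line. Its KO-/- and KO+/+ animals at 20 dpp (4 and 3 animals) and its KO+/- animals at 17 dpp (6 animals) are compared below. The 4 KO-/- animals at 17 dpp are compared with no group below, but enter the fit over all 24 animals and its pooled spread.

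Brdt encodes the testis-specific member of the BET family, proteins that bind acetylated histones through a pair of bromodomains. The first bromodomain of BRDT binds acetylated histone H4 and is known to be needed for the removal of histones and compaction of chromatin in elongating spermatids. In the first wave of spermatogenesis the germ cells pass through meiosis together, so that round spermatids are just appearing at the age sampled here and later stages are still rare.

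Total RNA of whole testis was labelled with biotin and hybridised to Illumina bead arrays, and values are log2 of the background-corrected, quantile-normalized signal, averaged over the arrays of an animal. Median raw signals lay between 128.6 and 150.5 on deletion arrays and between 124.7 and 152.9 on control arrays, and 17710 to 19475 and 17816 to 20016 probes were detected. Precision is limited by the number of animals and arrays. Arrays of 1 animal correlated at a median r of 0.992 across probes, and arrays of different animals of a group at 0.985. Heterozygous animal 191 was the control nearest to the deletion animals in Brdt and in early round spermatid genes. In RNA of a whole organ, fewer cells of a type and less RNA per cell cannot be told apart. Germ line RNA was abundant in all 7 animals: the markers Ddx4 and Dazl lay at 10.18 to 10.41 and 11.72 to 12.27 in deletion animals, against 10.18 to 10.75 and 11.68 to 12.06 in controls. The epididymal defining genes Lcn5, Lcn8, Crisp1 and Gpx5 did not pass the detection filter.

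Brdt transcript remained abundant in the BD1 deletion but lay below the controls. The probe with the highest mean read 10.20, 10.29 and 10.50 in deletion animals 193, 197 and 222, against 11.36 and 10.75 in heterozygous animals 219 and 191 and 11.59 and 11.73 in wild-type animals 195 and 196. The groups did not overlap, and animal 191 was the lowest control. The difference was -1.03 ± 0.30 (SE; limma, adjusted p = 0.0323), and it was lost against heterozygous controls alone (-0.72, limma, adjusted p = 0.501). It was also lost when deletion animal 193 or 197 or control animal 219, 195 or 196 was left out, with adjusted p between 0.0619 and 0.136. A second Brdt probe differed by -0.46 ± 0.21 (limma, adjusted p = 0.167). The sources used here do not place either probe relative to the deleted part, so neither checks the labels. The other measured BET genes, Brd2 and Brd3, did not pass the test. Brd2 differed by -0.22 (95% interval -0.46 to 0.01) and Brd3 by 0.24 (0.02 to 0.47).

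Across the testis transcriptome the deletion was marked by deep falls and shallow rises. Of 11529 genes tested in the fit over all 24 animals, 738 fell (6.4%) and 372 rose (3.23%) at an adjusted p under 0.05 (limma, Benjamini-Hochberg). Of these, 471 fell at least 2-fold (4.09%) and 8 rose at least 2-fold (0.0694%). With litter as a block, 1211 genes fell (10.5%) and 1291 rose (11.2%), and all 1110 calls without the block were among them in the same direction. The median difference of all genes was 0.12, and relative to it 1077 genes fell and 50 rose, so that rises made up 4.44% of calls in place of 33.5%. Called rises were small, with a median of 0.48, against a median of -1.26 for called falls. The animals of both groups did not overlap for 571 of the 738 genes that fell and 266 of the 372 that rose. Over all genes tested, 7.9% were lower and 11% higher without overlap. Among the genes that fell, 251 were detected on no deletion array, and for 134 of them the lowest detectable signal bounds the fold at 2 or more. The labels name separate animals, so the p-values measure spread between animals, but that spread is pooled over all 24 animals of both lines. With the spread of the BD1 line alone, 313 genes fell and 18 rose. Leaving out wild-type animal 196 left 475 falls and 70 rises, and leaving out animal 195 left 544 and 162. Without deletion animal 193 there were 462 falls and 53 rises, and without animal 197 there were 480 and 75. Leaving out heterozygous animal 191 gave 1333 and 2095. Among the genes described below, the calls of 4922502B01Rik, Acer2, Aif1, Aurkc, Bcl2l11, Brdt, Ccna1, Cdkn2b, Chd5, Cst9, Gdnf, Hs3st1, Hspb8, Idh3a, Kif17, Klf4, Olig1, Prss21, Prss39, Rpl35, Rplp1, Sct, Slc25a2, Sohlh1, Sox9, Tbp, Tmem91 and Tnp1 were each lost when 1 of the animals was left out.

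Genes of early round spermatids had the lowest median difference of the 33 gene lists examined. Of 36 measured genes of this stage, 24 fell (66.7%, beside 6.4% of all genes) and none rose, with a list median of -2.71. The mean log2 signal of the list was 6.16 to 6.47 in deletion animals, against 7.65 and 8.33 in heterozygous and 9.32 and 9.54 in wild-type animals. Every deletion animal lay under every control. The wild-type controls, both of litter 5, lay above the heterozygous ones, so genotype and litter cannot be told apart in this split. Spermatids are the first haploid germ cells, and many of their genes are silent at all earlier stages.

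Among the 12 largest falls without overlap between the groups, Acrv1 and Spaca3 encode acrosomal proteins, the second a lysozyme relative. Acrv1 read 4.53, 4.69 and 4.87 in deletion animals, against 8.99 and 7.90 in heterozygous and 9.96 and 10.58 in wild-type animals. It was detected on none of 6 deletion arrays and was at least 14.1-fold lower (limma, adjusted p = 6.18e-09). Spaca3 read 4.46, 4.67 and 4.83 in deletion animals, against 9.17 and 8.15 in heterozygous and 9.92 and 10.29 in wild-type animals, at least 14.4-fold lower (limma, adjusted p = 7.24e-10). Both genes were thus near background in all 3 deletion testes, while even the lowest control, animal 191, was well above it. Spata45, a testis-expressed gene, carried the largest bound: it read 4.51, 4.99 and 5.06 in deletion animals, against 9.63 and 8.56 in heterozygous and 10.32 and 10.76 in wild-type animals, at least 19.4-fold lower (limma, adjusted p = 7.16e-10). Tex36, Tmem247 and Lyzl1, a further lysozyme relative, were likewise detected on no deletion array. Tex36 was at least 16.9-fold, Tmem247 at least 16.03-fold and Lyzl1 at least 12.8-fold lower. Ankrd61, which encodes an ankyrin repeat protein, and Gtsf1l, a relative of the piRNA factor Gtsf1, fell by 4.99 and by 4.62 on the log2 scale but were detected on 4 of 6 deletion arrays each. The acrosomal and cytoskeletal genes Izumo1, the sperm ligand of egg fusion, and Actl7a, a spermatid actin relative, also fell. Izumo1 was at least 3.52-fold lower, and Actl7a differed by -3.94. These 2 genes, and further genes marked below as chosen later, were picked for their roles after their values were seen.

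The Y chromosome held the largest falls of all. Ssty2, a multi-copy spindlin family gene of the Y long arm, read 4.79, 5.05 and 5.60 in deletion animals, against 10.37 and 9.35 in heterozygous and 10.71 and 10.98 in wild-type animals, a difference of -5.20 ± 0.43 (limma, adjusted p = 1.02e-08). Gm20815 (-5.42), Gm21943 (-5.16) and Gm20867 (-4.64) are annotated predicted genes of the same chromosome, and all of these probes may bind several near-identical copies. Ssty1 and Sly, a Y-linked regulator of sex chromosome transcription in spermatids, were detected on no deletion array and were at least 5.30-fold and 4.86-fold lower. In the list of X and Y spermatid genes, 12 of 26 fell (46.2%) and none rose, with a median of -0.14. The X-linked Cypt3 (chosen later), a spermatid gene of the Cypt family, was at least 8.14-fold lower. Zfy1 (chosen later), a Y-linked zinc finger gene already active in earlier germ cells, read 6.17 to 6.34 in deletion animals and 5.62 to 6.11 in controls and did not pass the test (0.30, 95% interval -0.05 to 0.66). Over the whole Y chromosome 8 of 13 measured genes fell (61.5%). Over the X chromosome 41 of 416 fell (9.86%) and 11 rose (2.64%), beside 6.4% and 3.23% of all genes.

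**Figure D1:**
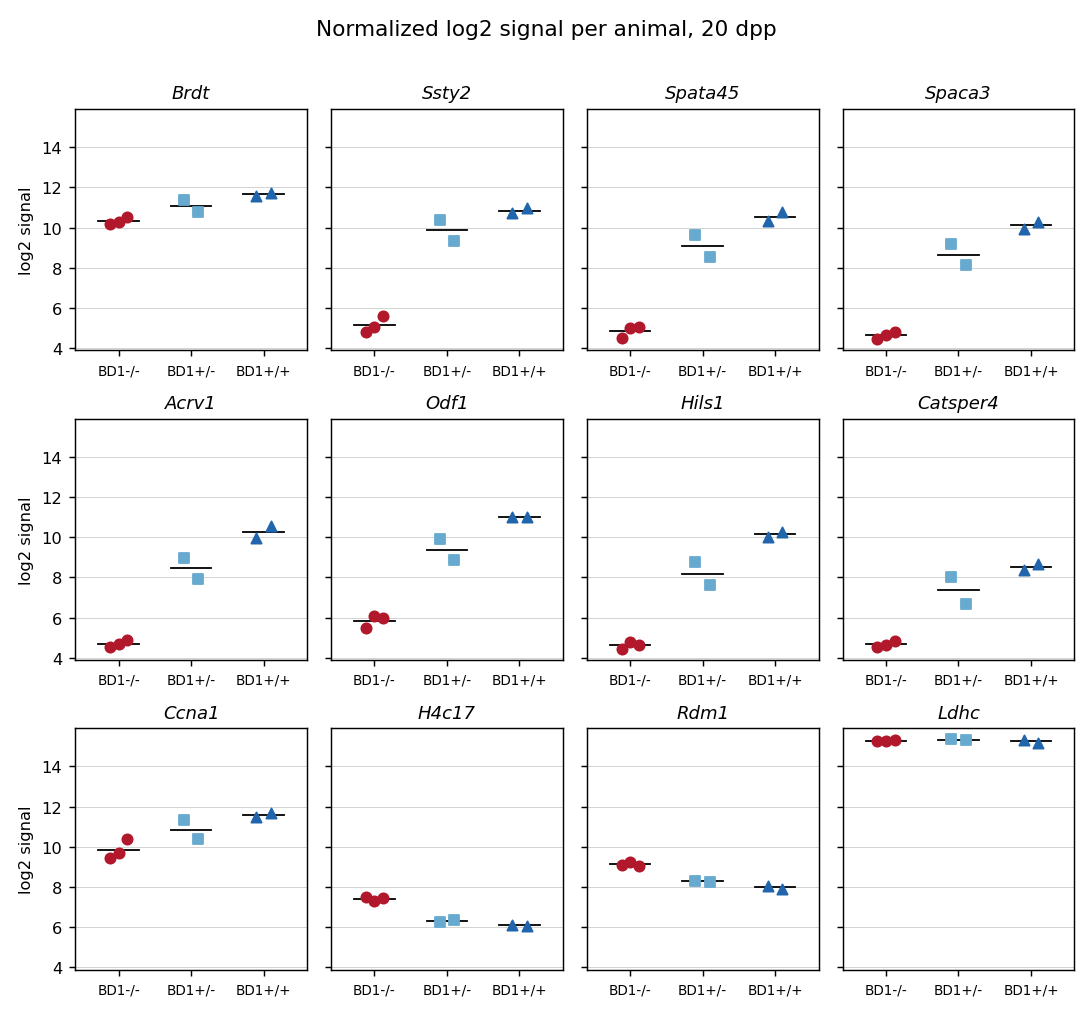
Normalized log2 signal (vertical axes) of 12 genes in each animal at 20 dpp. Circles are the 3 BD1-/- animals, squares the 2 BD1+/- and triangles the 2 BD1+/+ controls, and bars are group means; the spermatid genes Ssty2, Spata45, Spaca3, Acrv1, Odf1, Hils1 and Catsper4 lie far below both control genotypes, H4c17 and Rdm1 lie above them, and Ldhc is level.

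Genes of the acrosome, the secretory cap of the sperm head, fell for 15 of 35 measured members, with a median of -0.82 and no rise. That is 42.9%, beside 6.4% of all genes. Tmem190, an inner acrosomal membrane protein, read 4.52 to 4.63 in deletion animals and 7.60 to 9.76 in controls. It was detected on no deletion array and was at least 10.05-fold lower (limma, adjusted p = 1.71e-09). Spaca7, a protein of the acrosome interior, fell by 4.45 on the log2 scale and was detected on 1 of 6 deletion arrays. The hyaluronidase gene Spam1 (chosen later) was at least 8.37-fold lower. With litter as a block, 20 of 35 fell, while 10.5% of all genes did.

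Sperm tail genes were grouped by structure. Of 22 genes of the outer dense fibres and fibrous sheath, 11 fell (50%, median -0.73), beside 6.4% of all genes. Odf1, a main protein of the outer dense fibres, read 5.46, 6.09 and 5.99 in deletion animals, against 9.90 and 8.85 in heterozygous and 11.001 and 10.99 in wild-type animals, a difference of -4.34 ± 0.37 (limma, adjusted p = 1.43e-08). Odf3, a sperm tail protein, was at least 9.28-fold lower, and Gapdhs, the spermatid glyceraldehyde-3-phosphate dehydrogenase anchored in the sheath, at least 5.14-fold lower. Of the fibrous sheath scaffolds (chosen later), Akap3 differed by -2.35 and Akap4 was at least 4.11-fold lower. Of 51 genes of the axoneme, the microtubule core shared with other cilia, and of its transport, 7 fell (13.7%, median -0.54). With litter as a block 22 of the 51 fell, while 10.5% of all genes did. Cfap58, a cilia and flagella protein, fell by 2.05, and the axonemal dynein intermediate chain gene Dnaic2 by 1.85. Ropn1, a sperm fibrous sheath protein, was at least 1.56-fold lower.

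CatSper is the calcium channel of the sperm tail, and 9 of 22 channel genes fell (40.9%, median -0.69), beside 6.4% of all genes. Its pore subunit gene Catsper4 read 4.53, 4.63 and 4.86 in deletion animals, against 8.04 and 6.66 in heterozygous and 8.38 and 8.65 in wild-type animals, at least 5.26-fold lower (limma, adjusted p = 1.03e-07). Catsper1 and Catsper3 (chosen later), further pore subunits, were at least 2.31-fold and 5.27-fold lower. Efcab9, a calcium sensor of the channel, and Tmco5, a coiled-coil membrane protein, differed by -3.48 and -3.47. Of the pore subunit genes named here, none was detected on a deletion array. Among the ADAM surface proteins and their chaperones 8 of 22 fell (36.4%, median -0.77). The testis protein disulfide isomerase gene Pdilt was at least 8.46-fold lower. Adam21 and Adam26a were near background in deletion animals and had bounds of 1.10-fold and 1.11-fold only. Adam3 (chosen later), a surface protein needed for sperm migration, lay at 12.15 to 12.51 in deletion animals and 12.72 to 13.34 in controls and did not pass the test (-0.84, 95% interval -2.23 to 0.55).

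Among transition proteins, protamines and germ line histones, which package the spermatid genome, 4 of 13 genes fell (30.8%, median -0.39), beside 6.4% of all genes. Hils1, a linker histone of spermatids, read 4.43, 4.80 and 4.66 in deletion animals, against 8.75 and 7.62 in heterozygous and 10.02 and 10.25 in wild-type animals, at least 12.3-fold lower (limma, adjusted p = 1.63e-08). The protamine relative Prm3 was at least 2.26-fold lower, and the histone variant gene H2bl1, also detected on no deletion array, was at least 2.999-fold lower. Tnp1, which encodes the transition protein that follows histone removal, read 5.13, 5.22 and 5.01 in deletion animals, against 5.91 and 5.46 in heterozygous and 9.05 and 8.93 in wild-type animals (limma, adjusted p = 0.026). Both heterozygous animals were close to the deletion animals here, and with heterozygous controls alone the call was lost (limma, adjusted p = 0.695). H2ax (chosen later), the histone variant of the meiotic sex body, differed by 0.31 (limma, adjusted p = 0.236). Among chromatin regulators 6 of 36 fell (16.7%, median 0.04). These included Chd5 (-0.74), a remodeller of histone-to-protamine exchange, and Dnmt3l (-1.67), a cofactor of DNA methylation. Hmgb4, an HMG box gene of late germ cells, was also among the 6 and was at least 1.87-fold lower.

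Transcription regulators of spermiogenesis fell for 4 of 18 members (22.2%, median -0.28), beside 6.4% of all genes. Fhl5, the germ cell coactivator of the cAMP-responsive factor CREM, read 4.73, 4.47 and 4.53 in deletion animals, against 6.87 and 5.64 in heterozygous and 8.65 and 8.93 in wild-type animals, at least 3.96-fold lower (limma, adjusted p = 0.0002). Crem (chosen later) lay at 10.33 to 10.88 in deletion animals and 10.73 to 11.58 in controls and did not pass the test (-0.70, 95% interval -1.44 to 0.04). Tbp, the TATA-binding protein gene, which germ cells express at high level, fell by 0.57, while its relative Tbpl1 (chosen later), required in round spermatids, differed by 0.11 (95% interval -0.33 to 0.54). Kif17, the motor protein that moves the FHL5 protein out of the nucleus, was detected on no deletion array and on 5 of 6 control arrays. It read 4.68 to 4.91 in deletion animals and 5.28 to 6.04 in controls, at least 1.08-fold lower (limma, adjusted p = 0.0121).

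The palindromic cAMP response element TGACGTCA, the site CREM binds, was searched on both strands in the 250 bases before each RefSeq gene start (build GRCm38.p6, any start of a gene). It was present for 17 of 604 genes that fell (2.81%), for 9 of 304 that rose (2.96%) and for 276 of 9371 genes tested (2.95%) that had a listed promoter. The shorter TGACGT, which every palindrome contains, was present for 6.79% of the genes that fell, 11.2% of those that rose and 11% of all genes. Znrf4, Msi2 and Kif17 are among the genes named here that fell and hold the palindrome. They are examples and not a full count, since not every named gene was looked up singly. The promoters of Znrf4, which lies among the deepest falls, and of Kif17 are given 5′ to 3′ on the strand of the gene, with the palindrome in capitals, as chr17:56512484-56512733 (minus strand) and chr4:138262001-138262250 (plus strand). A match of letters is no bound site.
Znrf4: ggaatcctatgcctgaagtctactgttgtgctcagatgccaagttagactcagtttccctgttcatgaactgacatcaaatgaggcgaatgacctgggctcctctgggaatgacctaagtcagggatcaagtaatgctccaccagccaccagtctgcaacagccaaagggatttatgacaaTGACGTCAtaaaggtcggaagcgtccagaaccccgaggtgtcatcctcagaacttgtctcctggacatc
Kif17: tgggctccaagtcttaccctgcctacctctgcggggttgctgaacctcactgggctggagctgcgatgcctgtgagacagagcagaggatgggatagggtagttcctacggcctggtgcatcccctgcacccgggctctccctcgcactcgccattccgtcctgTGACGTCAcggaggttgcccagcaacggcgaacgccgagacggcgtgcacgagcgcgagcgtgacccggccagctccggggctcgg

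In lists of other spermatid functions the share of genes that fell ranged from 6.25% for translation to 25% for metabolic isozymes, beside 6.4% of all genes. Znrf4, a membrane ubiquitin ligase, read 4.89, 5.44 and 5.40 in deletion animals, against 9.61 and 8.41 in heterozygous and 10.55 and 10.66 in wild-type animals, a difference of -4.56 ± 0.35 (limma, adjusted p = 3.14e-09). With Klhl10 (-3.26), a ubiquitin ligase adaptor required for male fertility, and Trim36 (-4.37), a ubiquitin ligase of the acrosome reaction, it was among the 4 of 28 proteolysis genes that fell, while 1 rose. Of 24 signalling genes 5 fell. Among them were the spermatid kinase genes Tssk2 (-2.73) and Tssk4, which was at least 4.07-fold lower, and Pde1a (-1.55), a calcium-dependent phosphodiesterase. Of 32 metabolic isozyme genes 8 fell and 1 rose. Acsbg2 (-2.93), a fatty acyl-CoA synthetase, and Oaz3 (-3.40), the germ cell antizyme that limits polyamines, fell, and Idh3a (chosen later), a subunit of a citric acid cycle enzyme, was the 1 that rose (0.49). The RNA-binding regulators Cpeb2 (-1.89) and Msi2 (-0.95) were the 2 of 32 translation genes that fell, a share near that of all genes. In the piRNA list 3 of 30 fell, and besides Gtsf1l and Kif17 the third was Spata31, at least 1.48-fold lower. In the heat shock list 4 of 33 fell, among them Dnajc5b (-3.99), a cysteine-string co-chaperone.

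None of 27 genes of synapsis, recombination and cohesion passed the test in either direction (median 0.17). Litter as a block called 1 higher and 0 lower. Of all genes 6.4% fell and 3.23% rose, so a list of this size would hold few calls in any case. Markers of pachytene spermatocytes were abundant in both groups. Sycp1, a synaptonemal complex protein, read 9.14, 9.43 and 9.23 in deletion animals, against 9.19 and 9.36 in heterozygous and 8.81 and 9.26 in wild-type animals, with a difference of 0.11 (95% interval -0.31 to 0.53). Hspa2, the spermatocyte heat shock protein, differed by -0.08 (-0.48 to 0.33), Piwil1, the pachytene piRNA effector, by -0.18 (-1.04 to 0.68) and Ldhc, the germ cell lactate dehydrogenase, by -0.00 (-0.85 to 0.85). The animals of both groups overlapped for all 4. In the pachytene and diplotene list 5 of 30 fell (16.7%, median -0.33), and those with the smallest p were Gapdhs, Theg (-2.40), a spermatid protein, and Ccna1. Gapdhs and Theg are better known from spermatids than from spermatocytes.

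Of 31 cyclins, kinases and regulators of the meiotic divisions, 2 fell and none rose (median -0.10), a share of 6.45% beside 6.4% of all genes. Ccna1, the germ line cyclin A1 needed to enter the first meiotic division, read 9.44, 9.69 and 10.39 in deletion animals, against 11.31 and 10.40 in heterozygous and 11.49 and 11.68 in wild-type animals, a difference of -1.38 ± 0.32 (limma, adjusted p = 0.00705). Deletion animal 222 and control animal 191 were nearly level. Aurkc, the kinase of the meiotic spindle checkpoint, fell by 0.87 (limma, adjusted p = 0.0497), with overlap between the groups. Cdk1 and Aurka (chosen later) did not pass the test, at -0.08 (95% interval -0.34 to 0.17) and -0.57 (-0.996 to -0.15). Both calls could be lost by leaving out 1 animal, with a highest adjusted p of 0.0717 for Ccna1 and 0.223 for Aurkc.

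**Figure D2:**
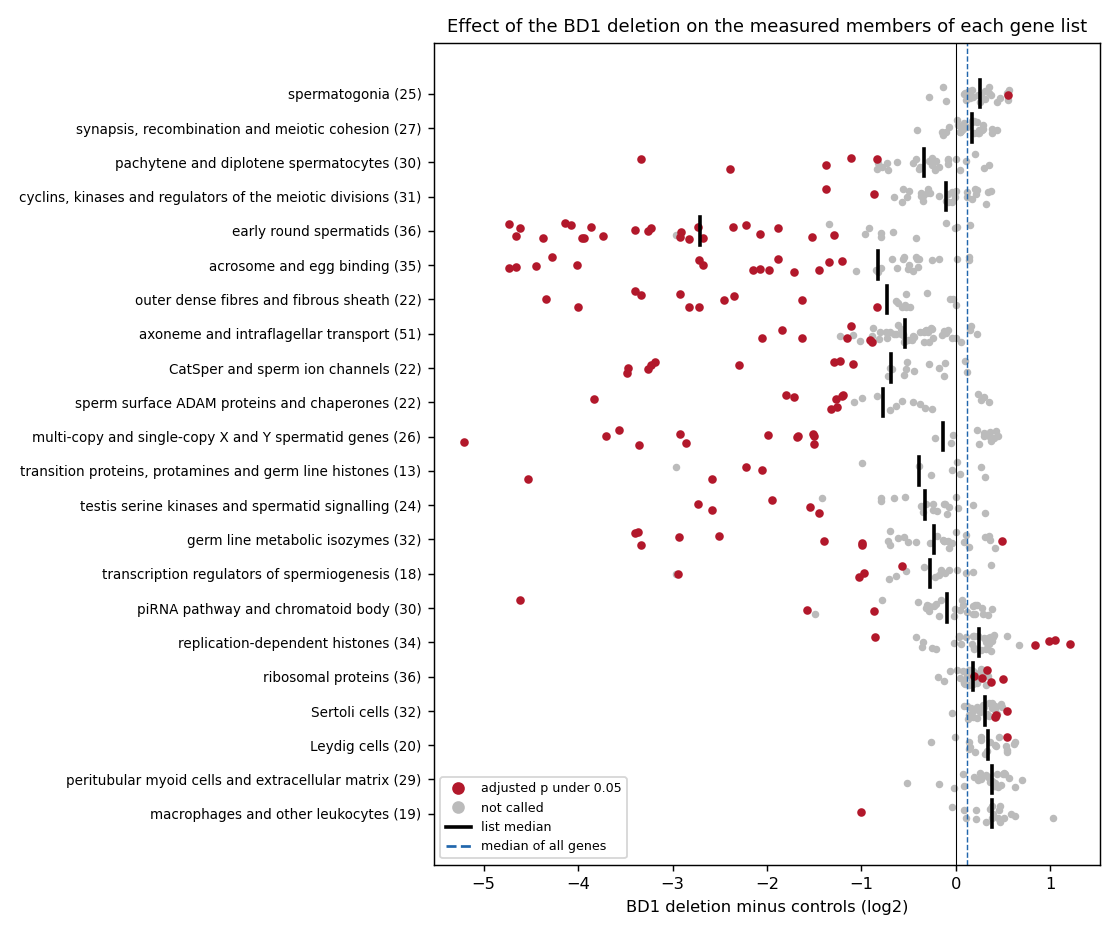
Difference between BD1 deletion and control animals (log2, horizontal axis) for every measured member of 22 gene lists, with the number measured in brackets. Red points passed an adjusted p under 0.05, black bars are list medians and the dashed line is the median of all genes (0.12); called members of the spermatid lists reach -5.20, while the synapsis, Sertoli, Leydig and peritubular lists have medians above the dashed line.

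Rises were shallow, and histone H4 genes were among the largest. H4c17 read 7.48, 7.32 and 7.44 in deletion animals, against 6.26 and 6.37 in heterozygous and 6.09 and 6.09 in wild-type animals, a difference of 1.21 ± 0.16 (limma, adjusted p = 6.17e-06). H4c18 (1.05) and H4c6 (0.98) also rose without overlap. Copies of histone H4 are near-identical, so the gene behind each probe is uncertain. In the list of replication-dependent histones 4 of 34 rose (11.8%, beside 3.23% of all genes) and 1 fell (median 0.25). Rdm1, a RAD52 relative of DNA repair, read 9.11, 9.26 and 9.05 in deletion animals, against 8.30 and 8.26 in heterozygous and 8.05 and 7.91 in wild-type animals, a difference of 1.01 ± 0.12 (limma, adjusted p = 3.56e-06). The calls of H4c17 and Rdm1 held without any 1 animal, with highest adjusted p of 1.27e-04 and 9.39e-05.

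Others of the 12 largest rises without overlap between the groups were Pbld2 (1.18), the collagen receptor subunit gene Itga11 (0.97), 2610524H06Rik (0.93), 4922502B01Rik (0.91), the heparan sulfate sulfotransferase gene Hs3st1 (0.89), the complement protease gene Masp1 (0.87), Tmem91 (0.87) and Olig1 (0.97), a transcription factor gene. Olig1 rested on wild-type animal 196: it read 9.13, 9.48 and 9.25 in deletion animals, against 8.71, 8.74 and 8.66 in controls 219, 191 and 195 and 7.15 in animal 196. The largest called rise of all was Erdr1, a gene of the sex chromosomes' shared region whose groups overlapped. The groups also overlapped for Cdkn2b (1.71), Hspb8 (1.07) and Acer2 (1.02, chosen later), a ceramidase gene. Erdr1 read 12.22 and 12.21 in animals 193 and 197 but 8.09 in animal 222, against 6.36 to 8.46 in controls. Its level thus differed between deletion animals by as much as between groups. Of 36 ribosomal protein genes 5 rose (13.9%, beside 3.23% of all genes) and none fell (median 0.18), among them Rps9 (0.37), Rpl35 (0.28) and Rplp1 (0.19). Bcl2l11, which encodes the pro-apoptotic protein BIM, was the 1 of 30 apoptosis and checkpoint genes that rose (0.61), and none fell. That share, 3.33%, is near the 3.23% of all genes. Klf4, a transcription factor also known in post-meiotic germ cells, was the 1 of 17 immediate early genes that fell (-1.03). Its list thus had a share of 5.88%, near the 6.4% of all genes.

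Called somatic cell genes were few in number, but for Sertoli cells their share was above that of all genes. Of 32 Sertoli cell genes 3 rose (9.38%, beside 3.23% of all genes) and none fell (median 0.31). With litter as a block 11 of the 32 rose, also a larger share than the 11.2% of all genes. Sox9, the Sertoli cell transcription factor, read 12.20, 12.46 and 12.02 in deletion animals, against 11.76 and 12.03 in heterozygous and 11.90 and 11.53 in wild-type animals (0.42, limma, adjusted p = 0.0319). Cst9 (0.41), a cystatin, and Gdnf (0.54), the growth factor of spermatogonial stem cells, were the others. Mean Sertoli signals overlapped, at 9.49 to 9.85 in deletion animals and 9.10 to 9.67 in controls. The defining markers Amh, Fshr, Inha, Cldn11, Rhox5 and Gata4 were measured as well, with differences of 0.13 to 0.48, and none passed the test.

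Of 20 Leydig cell genes 1 rose (5%), the peptide hormone gene Sct (0.55), and with litter as a block 5 rose and 0 fell. The list median was 0.34, with mean signals of 7.75 to 8.06 in deletion animals and 7.19 to 8.07 in controls. None of 29 peritubular and matrix genes was called (median 0.38; means 8.90 to 9.43 in deletion animals and 8.57 to 9.53 in controls; litter as a block called 6 higher and 0 lower). None of 13 endothelial genes was called either (median 0.35; 4 higher with litter as a block). Among 19 macrophage and leukocyte genes Aif1 fell (-1.01) and none rose (median 0.38). With litter as a block 3 rose and 1 fell. Mean signals of the list were 6.99 to 7.10 in deletion animals and 6.42 to 7.02 in controls. The macrophage markers Csf1r, Adgre1 and C1qa differed by 0.46, 0.47 and 0.21, and none passed the test. Against heterozygous controls alone Aif1 lost its call (limma, adjusted p = 0.539). The steroidogenic genes Cyp17a1 and Cyp11a1 differed by 0.45 (95% interval -0.45 to 1.35) and 0.32 (-0.30 to 0.95). Among spermatogonial genes (median 0.25), Sohlh1, a spermatogonial transcription factor, was the 1 of 25 that rose (0.55), while Kit, Stra8 and Zbtb16 did not pass the test. None of 6 red blood cell genes was called (median 0.04). The all-gene median was 0.12 on the same scale. Of all genes 3.23% rose and 6.4% fell, and with litter as a block 11.2% rose. With that block the Leydig, peritubular, endothelial and macrophage lists each held a larger share of rises than all genes. The red blood cell list held none. The part of these cell types in the falls of germ cell genes was not tested.

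The fall of spermatid genes was present in each of the 3 litters, and its size differed between them. The early round spermatid list had a median difference of -1.35 in litter 4 (animal 193 minus 191), -3.53 in litter 5 (animal 197 minus the mean of 195 and 196) and -2.01 in litter 6 (animal 222 minus 219). Litter 5, the 1 litter with wild-type controls, gave the largest difference in this list. Acrv1, not above background in the deletion animals, had measured differences of -3.37, -5.57 and -4.12 in litters 4, 5 and 6. Of the 738 genes that fell, 725 were lower in the deletion animal of every litter, a share that the call itself favours, and of all genes 19% were. Sertoli genes had litter medians of 0.01, 0.64 and 0.13. Control genotype and litter cannot be told apart here, since both wild-type animals came from litter 5 and each heterozygous animal from a litter of its own.

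**Figure D3:**
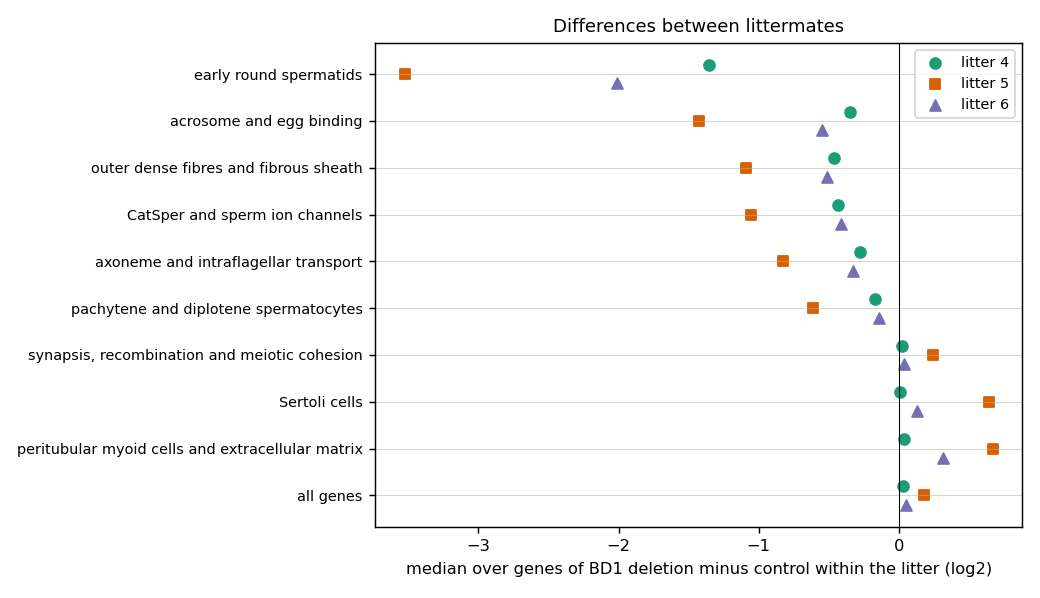
Median over the measured genes of each list of the difference between the deletion animal and its control littermates (log2, horizontal axis), for litters 4, 5 and 6. In litter 5 the controls are wild type and in the others heterozygous; the early round spermatid list is lowest in all 3 litters, at -1.35, -3.53 and -2.01.

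Genes whose level changes between 17 and 20 dpp were taken from the knockout line, which shares no animal with the BD1 line. The first list held 1545 genes at least 2-fold higher in KO+/+ testes at 20 dpp than in KO+/- testes at 17 dpp. Of these, 593 fell in the BD1 deletion (38.4%, beside 6.4% of all genes) and 1 rose (median -0.67). Of 866 genes at least 2-fold lower with age, 41 rose and none fell (median 0.37). That share of rises, 4.73%, is near the 3.23% of all genes. The mean signal of the first list was 7.88, 7.91 and 8.32 in deletion animals 193, 197 and 222, against 9.04 and 8.37 in heterozygous animals 219 and 191 and 9.22 and 9.50 in wild-type animals. Deletion animal 222 and control animal 191 were thus nearly level over these genes, while the spermatid list kept them apart (6.47 and 7.65). The age comparison is also one of genotype and of litter.

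The BD1 deletion was then set against the complete knockout of Brdt at the same age, which has its own wild-type controls. In the knockout 2385 genes fell (20.7%) and 4542 rose (39.4%). Of the 738 genes that fell in the BD1 deletion, 721 also fell in the knockout, which is 97.7% of the first list and 30.2% of the second. Of the 372 that rose, 338 also rose in the knockout (90.9% and 7.44%). Median effects on the 738 genes were -1.26 in the BD1 deletion and -1.85 in the knockout. The BD1 effect is taken against controls of both genotypes and the knockout effect against wild types only. Only 2 genes were called in opposite directions, Vsig10 and 4922502B01Rik. Acrv1 differed by -4.66 in the BD1 deletion and by -5.72 in the knockout, and the effects differed by 1.07 (95% interval -0.01 to 2.15; limma, adjusted p = 0.32). Against wild-type controls alone Acrv1 differed by -5.57 in the BD1 deletion. Where a gene is near background in both mutants, the arrays cannot rank the effects.

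The difference between both effects was itself called for 144 genes, 126 with a higher value in the BD1 deletion (1.09%) and 18 with a lower one (0.156%). The 126 genes fell or lay lower in the knockout without exception, with a median of -2.36, against -0.62 in the BD1 deletion. Picking genes by the difference of these effects itself favours such a gap. The testicular serine protease gene Prss39 showed the largest difference among genes called in both comparisons. Prss39 read 9.50, 9.75 and 10.70 in deletion animals, against 11.39 and 10.53 in heterozygous and 11.76 and 12.08 in wild-type animals, so that it differed by -1.45, and it averaged 5.37 in knockout animals and 11.6 in their wild-type controls, a difference of -6.26. The effects differed by 4.81 ± 0.62 (limma, adjusted p = 1.66e-04). Deletion animal 222 overlapped control animal 191 for this gene. Prss21, another testicular serine protease gene, differed by -1.71 in the BD1 deletion and by -6.39 in the knockout. Ccna1 differed by -1.38 and by -5.03 (difference of effects 3.65 ± 0.46, limma, adjusted p = 1.33e-04). Fa2h, a fatty acid hydroxylase, differed by -1.59 and -4.89, and Slc25a2, a mitochondrial ornithine carrier, by -1.19 and -4.50. All 5 were detected on all 6 deletion arrays, and their means lay between 8.79 and 9.99 in deletion animals, against 5.30 to 5.88 in knockout animals.

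In the other direction, Rdm1 rose less in the BD1 deletion (1.01) than in the knockout (1.74; difference -0.74 ± 0.18, limma, adjusted p = 0.0389). Vsig10, an immunoglobulin domain membrane protein, read 8.48, 8.66 and 8.44 in deletion animals, against 9.06, 9.05, 9.29 and 9.07 in controls, a fall of 0.59, while it rose by 0.68 in the knockout (difference -1.28 ± 0.17, limma, adjusted p = 1.66e-04). With a positive difference, 4922502B01Rik rose by 0.91 in the BD1 deletion and fell by 1.05 in the knockout (difference 1.96 ± 0.36, limma, adjusted p = 0.00737). Against wild-type controls alone, the kind the knockout effect uses, its rise was 0.43 and was not called (limma, adjusted p = 0.136). Both lines were sampled in different litters, and leaving out deletion animal 222 reduced the 144 calls to 31, with 29 higher and 2 lower. Leaving out control animal 191 gave 83 calls, and leaving out animal 196 gave 303. With only the wild-type controls of the BD1 line there were 53 calls, and with only the heterozygous ones 758.

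**Figure D4:**
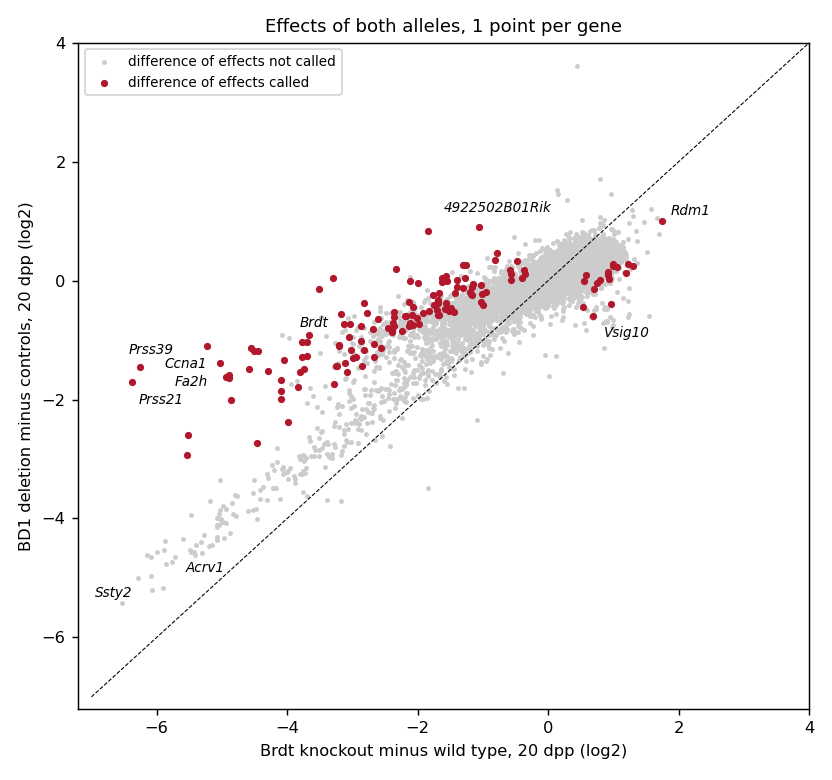
Effect of the BD1 deletion (log2, vertical axis) against the effect of the Brdt knockout at 20 dpp (log2, horizontal axis) for 11529 genes. Red points are the 144 genes whose effects differ at an adjusted p under 0.05 and the dashed line marks equal effects; Acrv1 and Ssty2 lie nearer that line, while Prss39, Prss21, Ccna1 and Fa2h lie far above it.

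Within the controls, wild-type and heterozygous animals differed for 402 genes, 360 higher in wild type (3.12%) and 42 lower (0.364%). Both wild-type animals came from litter 5, so these differences may be of genotype or of litter. Prm1, the protamine gene of late spermatids, had the largest difference. It read 4.63, 4.64 and 4.77 in deletion animals, against 4.97 and 4.72 in heterozygous and 10.74 and 10.14 in wild-type animals. It was detected on no heterozygous array and was at least 32.7-fold higher in wild-type than in heterozygous animals (limma, adjusted p = 5.54e-05). Between the BD1 deletion and all controls Prm1 missed the threshold (limma, adjusted p = 0.0659). Cabs1, a calcium-binding protein of elongating spermatids, followed the same order, at 4.38 to 4.44 in deletion animals, 4.55 and 4.66 in heterozygous and 8.15 and 8.23 in wild-type animals. Best1 (chosen later), a chloride channel gene, was intermediate in heterozygous animals: it read 5.36 to 6.21 in deletion, 7.56 and 8.17 in heterozygous and 9.51 and 9.75 in wild-type animals.

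Some genes of this comparison went with the litter. Cyp2c55, a cytochrome P450, read 6.69 in deletion animal 197 and 8.00 and 8.68 in its wild-type littermates, against 4.48 to 4.84 in the animals of the other litters. Paip1, a regulator of translation through the poly(A)-binding protein, read 8.51 in animal 197 and 8.43 and 8.53 in its littermates, against 9.74 to 10.61 in the others. Cdkn2b, the cell cycle inhibitor p15, did not: it read 9.22, 8.18 and 8.08 in deletion animals, against 7.99 and 8.54 in heterozygous and 5.45 and 5.18 in wild-type animals. Hspb8, a small heat shock protein, had the same order, at 9.17 to 9.42 in deletion, 8.65 and 9.23 in heterozygous and 7.18 and 7.70 in wild-type animals. Both Cdkn2b (1.71) and Hspb8 (1.07) were called higher in the BD1 deletion, and neither call was made with heterozygous controls alone (limma, adjusted p = 0.791 and 0.654). Against heterozygous controls alone 309 genes fell and 17 rose in the BD1 deletion, and against wild-type controls alone 1220 fell and 1752 rose. Without animal 191 the wild-type minus heterozygous calls numbered 31, without animal 196 they numbered 48, and without animal 219 they numbered 900.

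**Figure D5:**
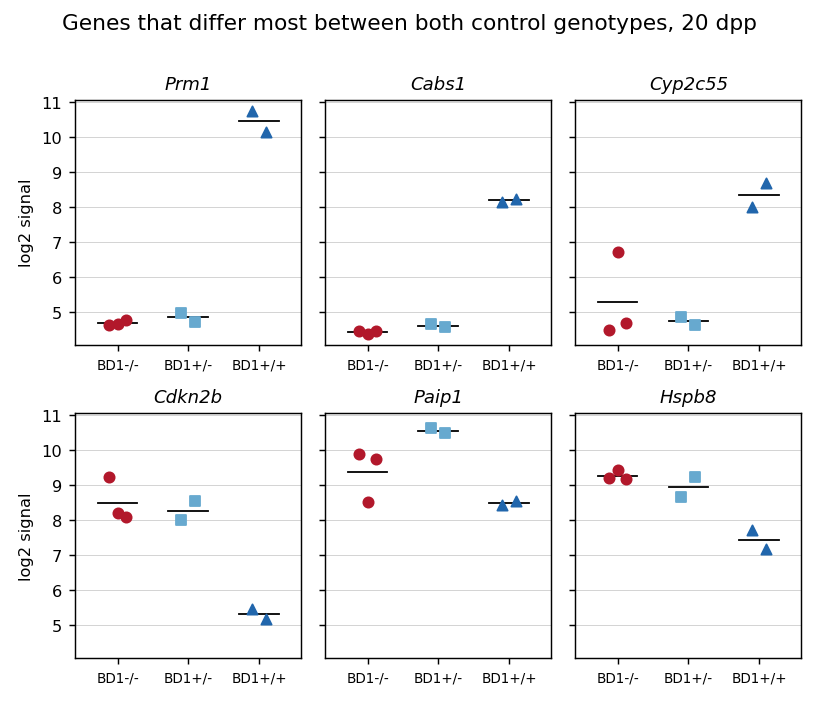
Normalized log2 signal (vertical axes) of the 3 genes with the largest called differences in each direction between wild-type and heterozygous controls. Circles are BD1-/-, squares BD1+/- and triangles BD1+/+ animals, and bars are group means; Prm1 and Cabs1 are high in wild type only, while 1 deletion animal, a littermate of the wild types, lies apart from the other deletion animals for Cyp2c55 and Paip1.

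The position of genes relative to Brdt on chromosome 5 was examined for the 50 measured neighbours on each side in gene order. Of these 100 genes, 10 fell and 2 rose, with a median of 0.11, beside all-gene shares of 6.4% and 3.23%. Testes of deletion animals weighed 20.1 ± 2.32 mg (SD, n = 3), against 22.5 ± 2.62 mg (SD, n = 4) in controls, a difference of -2.39 mg (exact two-sided permutation test, p = 0.257, with 0.0286 the smallest p the design allows). Within litters 4, 5 and 6 the difference was -0.4, -4.95 and -0.4 mg, so the deletion animal was the lighter in each.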

How the data were processed

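Total RNA of whole testis was measured on Illumina bead arrays. The deposited table gives, per the file headers, 1 raw intensity and 1 detection p-value per probe and array as the authors exported them, and the submitters' processing notes name GenomeStudio 2011.1. A second deposited table holds the authors' processed intensity values, used as an alternative. All columns were assigned to samples (columns not used: 0).

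Intensities were quantile-normalized and log2-transformed after background correction, for which limma inferred the background from detection p-values (limma 3.58.1, neqc, offset 16, R 4.3.3). Of 45281 probes, 21190 had detection p under 0.01 on every array of at least 3 animals. Platform annotation gave 34885 probes 1 symbol, 18 several and 10378 none. The probe with the highest mean stood for each of 11529 genes, and for Fam8a1 and Pafah1b1 other probes were called in the opposite direction. Arrays of 1 animal were averaged, and limma (lmFit, eBayes with trend) was fitted over 24 animals in 6 groups, with Benjamini-Hochberg adjusted p under 0.05 as the call. For a gene that no array of the lower group detected, the fold is a bound against the lowest detectable signal. The fit was tested on simulated data.

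Litter is given by the labels, so it pairs animals. Deviations from group means correlated at 0.57 (193 with 191), 0.33 (222 with 219), 0.06 (197 with 195) and -0.24 (197 with 196). Pairs from different litters ranged from -0.60 (222 with 191) to 0.51 (222 with 196). Deletion and control arrays correlated at a median r of 0.954 within a litter and 0.959 between litters, so littermates were not clearly more alike. Alternatives changed normalization, filter, probe choice, samples, blocks and left-out animals. Slide as a block was not run, since the columns give no slide.

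Named genes were Brdt, the 12 largest called changes each way with no overlap and with detection in all animals of whichever group was higher, up to 3 called members of each of 33 lists (742 of 1033 genes measured) by adjusted p, the 5 largest differences from the knockout effect each way among genes also called in the BD1 deletion, the 3 largest each way between control genotypes, and cell type markers. Members and lists were chosen with earlier results of these data known. Promoter sequences are from RefSeq.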

Additional observations from a re-analysis of the deposited data

Results flagged for a closer look

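Among the 4 controls, 3 of 148 items examined, which were genes and testis weight, had 1 animal far from the others (2.03%). Of all 11529 genes 586 did (5.08%), and chance alone gives about 1 in 20. Dazl was highest in heterozygous animal 191 at 12.06, with the other controls at 11.68 to 11.74. Olig1 was lowest in wild-type animal 196 at 7.15, with the others at 8.66 to 8.74. Vsig10 was highest in wild-type animal 195 at 9.29, with the others at 9.05 to 9.07.

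The BD1 effect differed from the knockout effect at 20 dpp for 144 genes in the test of the difference itself (limma, adjusted p under 0.05). Of the named genes, 9 were among them, and most of these were named for the size of this difference. BD1 minus knockout was 4.81 for Prss39, 4.67 for Prss21, 3.65 for Ccna1, 3.32 for Slc25a2, 3.30 for Fa2h and 2.67 for Brdt, all of which fell in both lines and less in the BD1 deletion. It was -0.74 for Rdm1, which rose in both. Vsig10 (-1.28) and 4922502B01Rik (1.96) went opposite ways in the 2 lines, but the rise of 4922502B01Rik was not called against wild-type controls alone.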

How the results depend on the processing

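The 1110 calls of the BD1 deletion stayed within 1.5 times under median scaling, no background correction, the authors' processed values, both other detection filters, mean of probes and suffix B arrays (899 to 1180). They numbered 331 in the BD1 line alone, 326 with heterozygous and 2972 with wild-type controls, 3257 with suffix A arrays, 479 at 2-fold or more and 1721 on dimmer arrays, a split by brightness chosen after seeing the data. With litter as a block they numbered 2502, with animal as a random block 2541, and with the replicate block on unaveraged arrays, which counts arrays as samples, 5715. Leaving out 1 animal gave 515 to 3428. The 144 differences from the knockout became 95 without background correction, 95 with the authors' values, 296 with animal as a random block, 52 with suffix A, 758 with heterozygous and 53 with wild-type controls, 77 on dimmer and 35 on brighter arrays, and 31 to 303 without 1 animal. The 402 differences between control genotypes became 118 in the BD1 line alone and 31 to 900 without 1 animal. Brdt lost its call (limma) as the mean of its probes (-0.74, adjusted p = 0.0627), with heterozygous controls (-0.72, adjusted p = 0.501) and on brighter arrays (-1.12, adjusted p = 0.0688), and lay between -1.23 and -0.90 without 1 animal. Testis weight kept its direction and missed the threshold (exact permutation test) in all settings, at -3.73 to -1.47 mg without 1 animal. Paip1, not called in the main comparison (-0.14), was -1.17 with heterozygous controls (limma, adjusted p = 0.0277), and turned to 0.99 with suffix A and 0.90 with wild-type controls. Of 101 named genes called, 70 kept their call whichever animal was left out. The cause of these changes was not tested. The early round spermatid median stayed between -3.63 and -1.35, with 22 to 32 genes lower. Low signal limits folds to bounds for 251 genes.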
